A study of Homo sapiens with 2 samples.

Results

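Cells recognise misplaced DNA and RNA through a small set of receptors, adaptors and effectors, and 9 genes of this set were examined: CGAS, STING1, TBK1, IRF3, TLR3, MAVS, TREX1, RIGI and IFIH1. They were chosen by name, and not by a threshold on any value, from 20163 protein-coding genes of the annotation. Positions are in GRCh37 (hg19). Every ATAC-seq peak inside the gene body of a member, or up to 3 kb from its transcription start site (TSS), was taken. These were 45 of 114060 peaks of the DMSO library and 36 of 161184 peaks of the MAK683 library. G401 is an established cell line from a rhabdoid tumor. One culture was given DMSO, the solvent. The other was given MAK683, an inhibitor of the Polycomb complex PRC2 that acts on its EED subunit, by which methylation of histone H3 at lysine 27 is blocked. Both were treated for 3 days, and the dose of 3 μM is the one stated for the study as a whole. Each group held 1 library from 1 culture, so differences could not be checked against replicates and are given with no p-value.

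cGAS, the product of CGAS, binds double-stranded DNA in the cytosol and makes the cyclic dinucleotide cGAMP, which activates STING, the product of STING1. RIG-I (RIGI) and MDA5 (IFIH1) bind double-stranded or otherwise foreign-looking RNA in the cytosol and act through the mitochondrial adaptor MAVS, while TLR3 detects double-stranded RNA in endosomes. These routes meet at the kinase TBK1 and the transcription factor IRF3, which switch on type I interferon genes, and the exonuclease TREX1 degrades the cytosolic DNA that would feed cGAS. RIGI, IFIH1 and TLR3 are themselves known as interferon-inducible genes.

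ATAC-seq measures open chromatin by the insertions of the Tn5 transposase. A peak's height is the number of tags, reads extended around the insertion, that pile up at its summit, divided by the tags of the library and given per 1000000 (RPM). After filtering, 16598348 DMSO tags and 18265284 MAK683 tags were left, so that 1 tag was worth 0.0602 and 0.0547 RPM. The lowest peak of either library held 6 tags. Ranges in parentheses are 95% exact intervals of the tag counts, which cover counting error only. SMARCB1, the gene lost in rhabdoid tumors, had 0 peaks in either library. The promoters of PTPRC and CD3E, markers of leukocytes, had 0 peaks, while the body of PTPRC had 1 DMSO and 6 MAK683 peaks of up to 15 tags and that of CD3E 1 MAK683 peak of 8 tags. EPCAM, a marker of epithelium, had a promoter peak of 12 DMSO and 11 MAK683 tags. Its body had 3 DMSO peaks of up to 31 tags and 5 MAK683 peaks of up to 20 tags. In a bulk library, fewer cells with an open site and a less open site in every cell cannot be told apart.

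Of the 9 genes, 8 had a promoter peak, a peak overlapping the window of 3 kb either side of the TSS, in both libraries. Over all protein-coding genes, 72.7% had one under DMSO and 78.7% under MAK683. CGAS alone had none. The tallest promoter peaks were of modest size, with a median of 1.54 RPM in the DMSO library, from 0.542 at IFIH1 to 2.29 at TBK1. In the MAK683 library the median was 1.26 RPM, from 0.931 at TLR3 to 1.75 at TBK1. The 14288 protein-coding promoters with a peak in both libraries had medians of 1.93 and 1.37 RPM.

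Promoter height was lower in the MAK683 library at most members, as it was at most promoters. IFIH1 had the highest ratio, which rested on a DMSO peak of 9 tags, and RIGI had the lowest. The IFIH1 interval was the 1 that lay above the median ratio of all promoters. The share of all promoters with such an interval was not computed. On the log2 scale this interval, −0.37 to 2.20, included −0.25, the median of promoters in its quartile of mean height. The median log2 ratio of height, MAK683 over DMSO, was −0.41 over the 8 members and −0.46 over the 14288 promoters. The members ranged from −0.82 at RIGI to 0.86 at IFIH1. Height was greater in the MAK683 library at 3 members, against 13.5% of promoters, and smaller at 5. Set against the promoter median, 5 members lay above it and 3 below. No member reached a 2-fold difference, which 1.11% of promoters reached upward and 5.89% downward. With the pileups of all peaks in the window summed in place of the tallest, MAVS at −1.12 and RIGI at −1.26 passed 2-fold lower. By that measure TBK1 turned to 0.66 and TREX1 to −0.39. The sum also depends on how many peaks were called. The share of all promoters past 2-fold was not computed for it. The counting interval lay wholly below 0 at 1 member, against 16.9% of promoters, and wholly above 0 at none, against 0.819%. In all 8 members the intervals of the heights in both libraries overlapped.

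**Figure D1:**
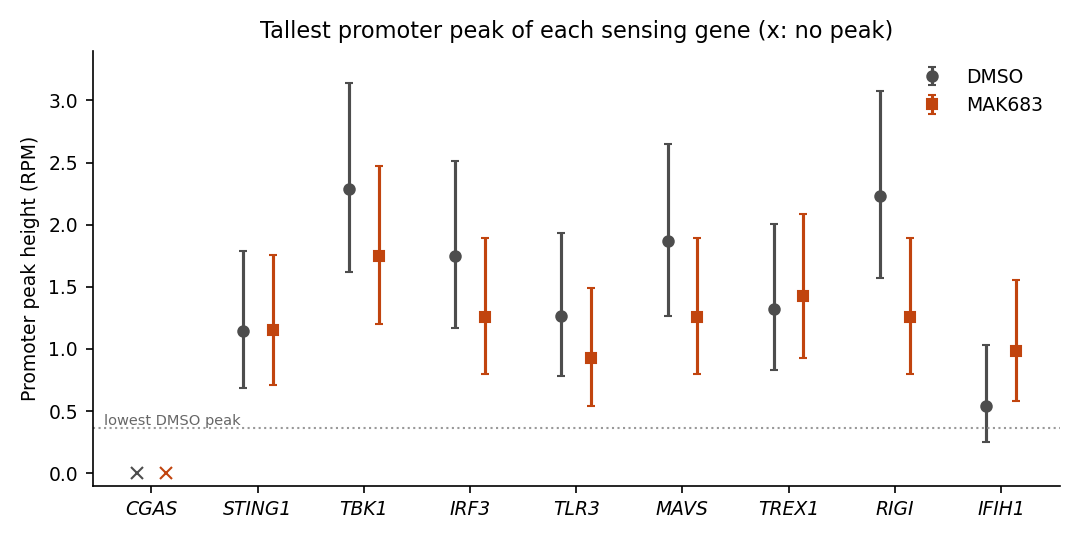
Height of the tallest promoter peak of each gene in RPM (vertical axis) in the DMSO library (grey circles) and the MAK683 library (orange squares), with 95% exact counting intervals as bars and crosses at 0 where no peak was called. The dotted line is the lowest DMSO height, 0.361 RPM, and IFIH1 at 0.542 RPM is the gene nearest to it in the DMSO library.

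**Figure D2:**
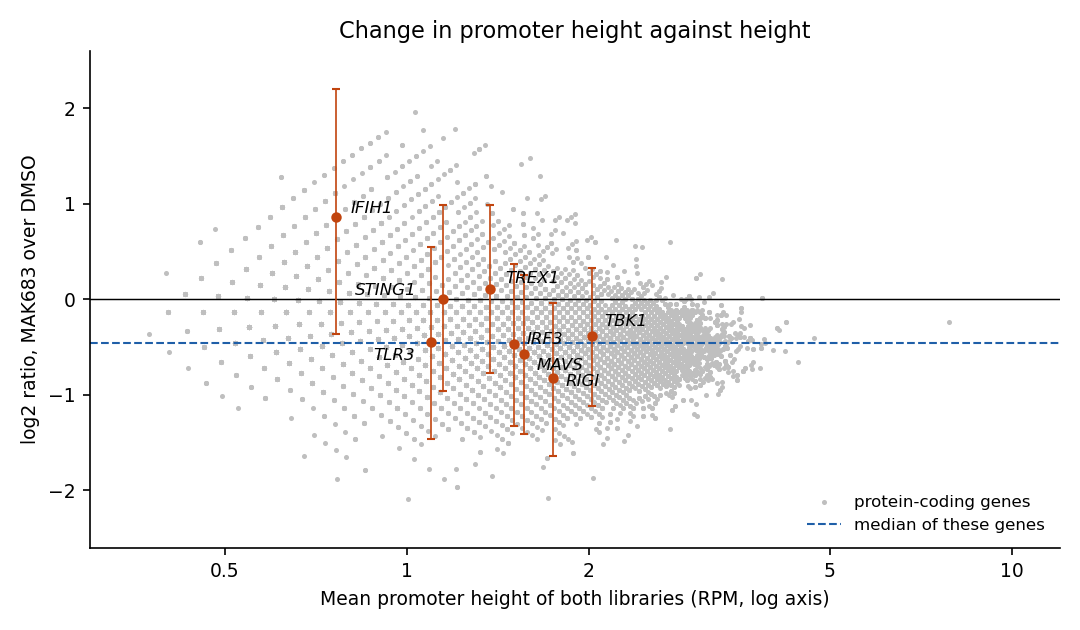
The log2 ratio of promoter height, MAK683 over DMSO (vertical axis), is plotted against the mean height of both libraries in RPM (horizontal log axis) for 14288 protein-coding promoters in grey and the 8 members in orange with 95% counting intervals. The dashed line is the median of all these promoters, −0.46, and IFIH1 at 0.86 stands furthest from it among the members.

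The cytosolic RNA sensors RIGI and IFIH1 had the lowest and the highest ratio of the 8. IFIH1 (ENSG00000115267) encodes MDA5, which binds long double-stranded RNA, and lies on the minus strand of chromosome 2, from 163123584 to 163175194. Its tallest promoter peak held 9 tags in the DMSO library, 0.542 RPM (0.248 to 1.03), and 18 tags in the MAK683 library, 0.985 RPM (0.584 to 1.56). The DMSO peak was among the lowest of all promoters, at percentile 2.58 of DMSO heights, and the MAK683 peak was at percentile 29.5 of MAK683 heights. The log2 ratio was 0.86 (−0.37 to 2.20), a 1.82-fold difference, and no ratio could be had at a −log10 q-value of at least 5, where the DMSO peak was lost. It stood at percentile 98.3 of the 14288 promoters and at percentile 94.5 of promoters of like mean height, those of its height quartile. The interval included 0. Taken relative to the promoter median, it ran from 0.09 to 2.66, above 0. Relative to −0.33, the median of 57983 regions that both libraries shared, it ran from −0.04 to 2.53 and included 0. Across the 22 other such regions within 1 Mb the median log2 ratio was −0.51, opposite in sign to IFIH1.

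IFIH1 also had more MAK683 peaks along the gene. The promoter window and gene body held 4 DMSO and 8 MAK683 peaks, covering 1381 and 5558 bp. IFIH1 was the 1 member with more peaks in the MAK683 library, as were 36.8% of protein-coding genes with any such peak. In the DMSO library the promoter window held 2 separate peaks, of 8 tags with its summit in untranslated exon sequence and of 9 tags with a summit 128 bp before the TSS. In the MAK683 library 1 peak of 1335 bp, from 163174296 to 163175630, covered both of these places, with a summit 50 bp before the TSS, and a second of 8 tags lay 2600 bp into the gene. The gene body held 2 intronic peaks of 9 and 10 tags in the DMSO library and 6 of 7 to 13 tags in the MAK683 library. The tallest of these, 2127 bp long with its summit 19130 bp downstream of the TSS, overlapped the DMSO peak of 10 tags. The 4 DMSO peaks all overlapped a MAK683 peak, and 3 of the 8 MAK683 peaks overlapped a DMSO peak. Over all peaks, 56.2% of DMSO and 43.2% of MAK683 peaks overlapped one of the other library. The neighbouring gene GCA begins at 163175350 on the plus strand, inside the promoter peak of both libraries, so that this peak covers the first annotated base of both genes. The TSS used for GCA is that of another transcript, at 163200642.

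RIGI (ENSG00000107201) encodes RIG-I, which binds short double-stranded RNA with a 5′ triphosphate, and lies on the minus strand of chromosome 9, from 32455300 to 32526206. Its promoter peak held 37 tags in the DMSO library, 2.23 RPM (1.57 to 3.07), and 23 tags in the MAK683 library, 1.26 RPM (0.798 to 1.89). On the log2 scale the ratio was −0.82 (−1.64 to −0.03), at percentile 14.0 of promoters. This was the 1 member whose interval lay below 0. Relative to the promoter median the interval ran from −1.18 to 0.43 and included 0. The 51 regions within 1 Mb had a median of −0.20. The peaks covered nearly the same bases, 1181 bp of DMSO peak and 1143 bp of MAK683 peak, while the summit lay 421 bp upstream of the TSS in the DMSO library and 88 bp upstream in the MAK683 library. A second DMSO peak of 13 tags, 914 bp downstream of the TSS in an intron, overlapped no MAK683 peak. No other peak was called across the 70.9 kb of the gene in either library. The protein-coding gene ENSG00000288684 spans RIGI on the same strand and starts outside its window.

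TLR3 (ENSG00000164342), the endosomal receptor for double-stranded RNA, lies on the plus strand of chromosome 4, from 186990065 to 187009227. Its tallest peak held 21 tags in the DMSO library, 1.27 RPM (0.783 to 1.93), and 17 tags in the MAK683 library, 0.931 RPM (0.542 to 1.49). This gave a log2 ratio of −0.44 (−1.46 to 0.55), at percentile 52.7 of promoters. The MAK683 peak lay wholly upstream of the gene, and the DMSO peak ended at 186990094, just past the first annotated base. The summits lay 971 and 958 bp upstream of the TSS, and the peak stopped short of the TSS in both libraries. TLR3 had 4 peaks in each library, the 1 member with peaks in equal number. The intronic peaks with summits 10729 and 12452 bp downstream of the TSS in the DMSO library, of 10 and 11 tags, were both overlapped by MAK683 peaks of 10 tags. The smaller peaks near the TSS were not shared.

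The promoter sequences of IFIH1, RIGI and TLR3 are shown because these are the sensor genes with the highest ratio, the lowest ratio and a peak away from the start. Each is 280 bases, 250 before the start and 30 from it, from the RefSeq promoter table of assembly GRCh38.p14, placed in GRCh37 by exact match. Capitals mark matches to motifs of factors of this pathway: the IRF core GAAANNGAA, the STAT site GAS TTCNNNGAA and the NF-kB site GGNNTTTCC, on either strand. IFIH1 lies at chr2:163175165-163175444 and RIGI at chr9:32526165-32526444, both on the minus strand, and TLR3 at chr4:186990060-186990339 on the plus strand.
IFIH1: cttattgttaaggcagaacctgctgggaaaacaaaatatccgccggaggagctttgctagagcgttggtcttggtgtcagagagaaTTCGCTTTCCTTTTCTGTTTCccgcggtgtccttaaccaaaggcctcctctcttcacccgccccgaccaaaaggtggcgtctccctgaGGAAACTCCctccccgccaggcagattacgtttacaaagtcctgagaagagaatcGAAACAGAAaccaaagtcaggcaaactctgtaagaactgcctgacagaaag
RIGI: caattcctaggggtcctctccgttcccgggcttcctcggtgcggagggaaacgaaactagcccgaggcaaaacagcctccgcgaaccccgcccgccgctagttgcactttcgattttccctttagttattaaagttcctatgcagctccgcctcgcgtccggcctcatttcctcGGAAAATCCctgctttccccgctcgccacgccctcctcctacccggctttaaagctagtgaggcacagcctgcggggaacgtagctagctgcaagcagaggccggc
TLR3: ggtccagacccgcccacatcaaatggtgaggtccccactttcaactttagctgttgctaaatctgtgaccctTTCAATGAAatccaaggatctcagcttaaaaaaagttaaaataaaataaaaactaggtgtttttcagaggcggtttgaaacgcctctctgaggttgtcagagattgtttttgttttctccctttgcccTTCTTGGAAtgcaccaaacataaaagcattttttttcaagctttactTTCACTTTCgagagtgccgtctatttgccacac

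IFIH1 had 4 matches to the IRF core, the site bound by IRF3 and related factors. Of these, 3 lay in a row on the strand opposite to the printed one, each overlapping the next. They began at positions −164, −158 and −152 relative to the start, and 1 lay on the printed strand at −21. The tallest peak of either library covered all 4. TLR3 had 1 IRF core match at −3 and 2 GAS matches, each of which reads as GAS on both strands. At TLR3 the DMSO peak reached into this sequence, and the MAK683 peak ended upstream of it. RIGI and IFIH1 each had 1 NF-kB match, which began at −76 in both. RefSeq promoters of the same table, of 300 bases each, were available for 6 members, and 2 of these 6 held an IRF core match, against 8.11% of 35116 promoters. A GAS match was found in 1 of 6, against 7.66%, and an NF-kB match in 2 of 6, against 6.26%. A match describes the letters and not a bound site.

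The 6 promoters differed in base composition. TBK1 and MAVS, with 68.3% and 71.7% GC and 35 and 34 CpG dinucleotides in 300 bases, stood above the median promoter of 58.7% GC and 14 CpG. RIGI had 60.3% GC and 27 CpG. IFIH1 with 50.7% GC and 12 CpG, TLR3 with 40.3% and 5, and TREX1 with 57.7% and 3 fell below both medians. The GC box GGGCGG, bound by Sp1 and its relatives, was found on either strand in 4 of 6, against 45.0% of promoters, with 3 copies at MAVS and 1 each at TLR3, RIGI and IFIH1. TBK1 held the ETS site CCGGAAG, found in 10.3% of promoters, and the box CCAAT, which MAVS also held and which 34.6% held. TREX1, whose RefSeq start lies 400 bp from the TSS used here, held the AP-1 site TGANTCA, which reads the same on both strands and which 7.71% held. The NRF1 site GCATGCGC was in 0 of 6 and in 3.05% of promoters. GC box and CCAAT matches did not overlap the pathway motifs in the printed sequences.

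CGAS (ENSG00000164430), the cytosolic DNA sensor, had no peak in either library, in its promoter window or anywhere in its 38.8 kb gene body. The gene lies on the minus strand of chromosome 6, from 74123238 to 74162020. No promoter peak in either library was found at 19.4% of protein-coding genes, and no peak in window or gene body at 12.5%. Among the 8071 genes whose window and gene body are at least as long as the 41.8 kb of CGAS, 3.7% had none. The nearest DMSO peaks were one of 9 tags 5850 bp upstream of the TSS and one of 7 tags 58706 bp away, beyond the far end of the gene. The nearest MAK683 peaks were one of 21 tags 9296 bp upstream and one of 31 tags 62763 bp away. The stretch around CGAS without a peak was therefore 64.6 kb long by DMSO peaks and 72.1 kb by MAK683 peaks. The peak lists give no value below the 6 tags of the lowest peak, so accessibility under that level was not detectable here. No ratio can be given for CGAS, and the 29 shared regions within 1 Mb had a median of −0.36.

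The intervals of the ratios of the adaptors STING1 and MAVS overlapped. STING1 (ENSG00000184584), the adaptor downstream of cGAS, lies on the minus strand of chromosome 5, from 138855118 to 138862520. Its promoter peak held 19 tags in the DMSO library, 1.14 RPM (0.689 to 1.79), and 21 tags in the MAK683 library, 1.15 RPM (0.712 to 1.76). The heights were nearly equal, with a log2 ratio of 0.01 (−0.96 to 0.98) at percentile 86.7 of promoters. The interval leaves room for a difference of close to 2-fold either way. The summits lay 436 and 397 bp downstream of the TSS, in an intron of the canonical transcript. The rest of STING1 carried 5 low DMSO peaks of 10 to 13 tags and 4 MAK683 peaks of 9 to 12 tags. Of the DMSO peaks of the locus 4 of 6 overlapped a MAK683 peak, and all 5 MAK683 peaks overlapped a DMSO peak.

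MAVS (ENSG00000088888), the mitochondrial adaptor of RIG-I and MDA5, lies on the plus strand of chromosome 20, from 3827446 to 3856770. Its promoter peak held 31 tags in the DMSO library, 1.87 RPM (1.27 to 2.65), and 23 tags in the MAK683 library, 1.26 RPM (0.798 to 1.89). The log2 ratio was −0.57 (−1.41 to 0.26), at percentile 37.8 of promoters. The summit was at the same place in both libraries, 42 and 41 bp upstream of the TSS. MAVS had the most DMSO peaks of the 9 genes, 13, and 8 MAK683 peaks, as many as IFIH1. The 8 DMSO and 6 MAK683 peaks beyond the promoter window held 7 to 12 tags, and all of their summits lay in introns or untranslated exon sequence. Within the window, 4 small DMSO peaks of 6 to 10 tags flanked the main one, and 1 of them overlapped a MAK683 peak.

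TBK1 (ENSG00000183735), the kinase that phosphorylates IRF3, had the tallest promoter peak of the 9 genes in both libraries. It lies on the plus strand of chromosome 12, from 64845870 to 64895894. The tallest peak held 38 tags in the DMSO library, 2.29 RPM (1.62 to 3.14), and 32 tags in the MAK683 library, 1.75 RPM (1.20 to 2.47). The ratio on the log2 scale was −0.39 (−1.11 to 0.33), at percentile 59.2 of promoters. The shape of the site differed between the libraries. A single DMSO peak of 2992 bp ran from 64843920 to 64846911, where the MAK683 library had 3 separate peaks of 13, 21 and 32 tags, with summits 1672, 1161 and 77 bp upstream of the TSS. With the pileups of all peaks in the window summed, the log2 ratio turned to 0.66. The gene body had 4 DMSO peaks of 9 to 11 tags and 0 MAK683 peaks. A long noncoding RNA gene, ENSG00000277895, starts on the other strand 781 bp away, at a TSS inside the DMSO peak and outside the MAK683 peaks. The gene XPOT, on the same strand as TBK1, ends at 64844905. The start of the DMSO peak and the MAK683 summits 1672 and 1161 bp upstream lie inside XPOT.

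IRF3 (ENSG00000126456), the transcription factor at the end of these routes, lies on the minus strand of chromosome 19, from 50162826 to 50169132. Its promoter peak held 29 tags in the DMSO library, 1.75 RPM (1.17 to 2.51), and 23 tags in the MAK683 library, 1.26 RPM (0.798 to 1.89). The log2 ratio was −0.47 (−1.33 to 0.37), at percentile 49.1, next to the median of all promoters. The summit lay 4 bp upstream of the TSS in the DMSO library and 1299 bp downstream, in an intron, in the MAK683 library. BCL2L12, a gene of the other strand, starts 76 bp from IRF3, so the peak covers both starts and cannot be given to either. The IRF3 window and gene body held 6 DMSO peaks and 3 MAK683 peaks.

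TREX1 (ENSG00000213689), the DNA exonuclease that limits cGAS activation, is the shortest of the 9 genes and lies on the plus strand of chromosome 3, from 48507210 to 48509044. Its tallest peak held 22 tags in the DMSO library, 1.33 RPM (0.831 to 2.01), and 26 tags in the MAK683 library, 1.42 RPM (0.930 to 2.09). As a log2 ratio the difference was 0.10 (−0.77 to 0.99), at percentile 89.3 of promoters. The MAK683 peak was longer, 2291 bp against 1459 bp, and reached from upstream of the gene to near its end. It joined the place of a DMSO peak of 22 tags upstream with those of 2 DMSO peaks of 7 and 11 tags inside the gene. With the pileups of all peaks in the window summed, the log2 ratio turned to −0.39. Each of the 5 DMSO and 4 MAK683 peaks overlapped a peak of the other library. ATRIP spans the whole of TREX1 on the same strand and ends at the same base, so peaks inside and just upstream of TREX1 also lie in ATRIP.

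**Figure D3:**
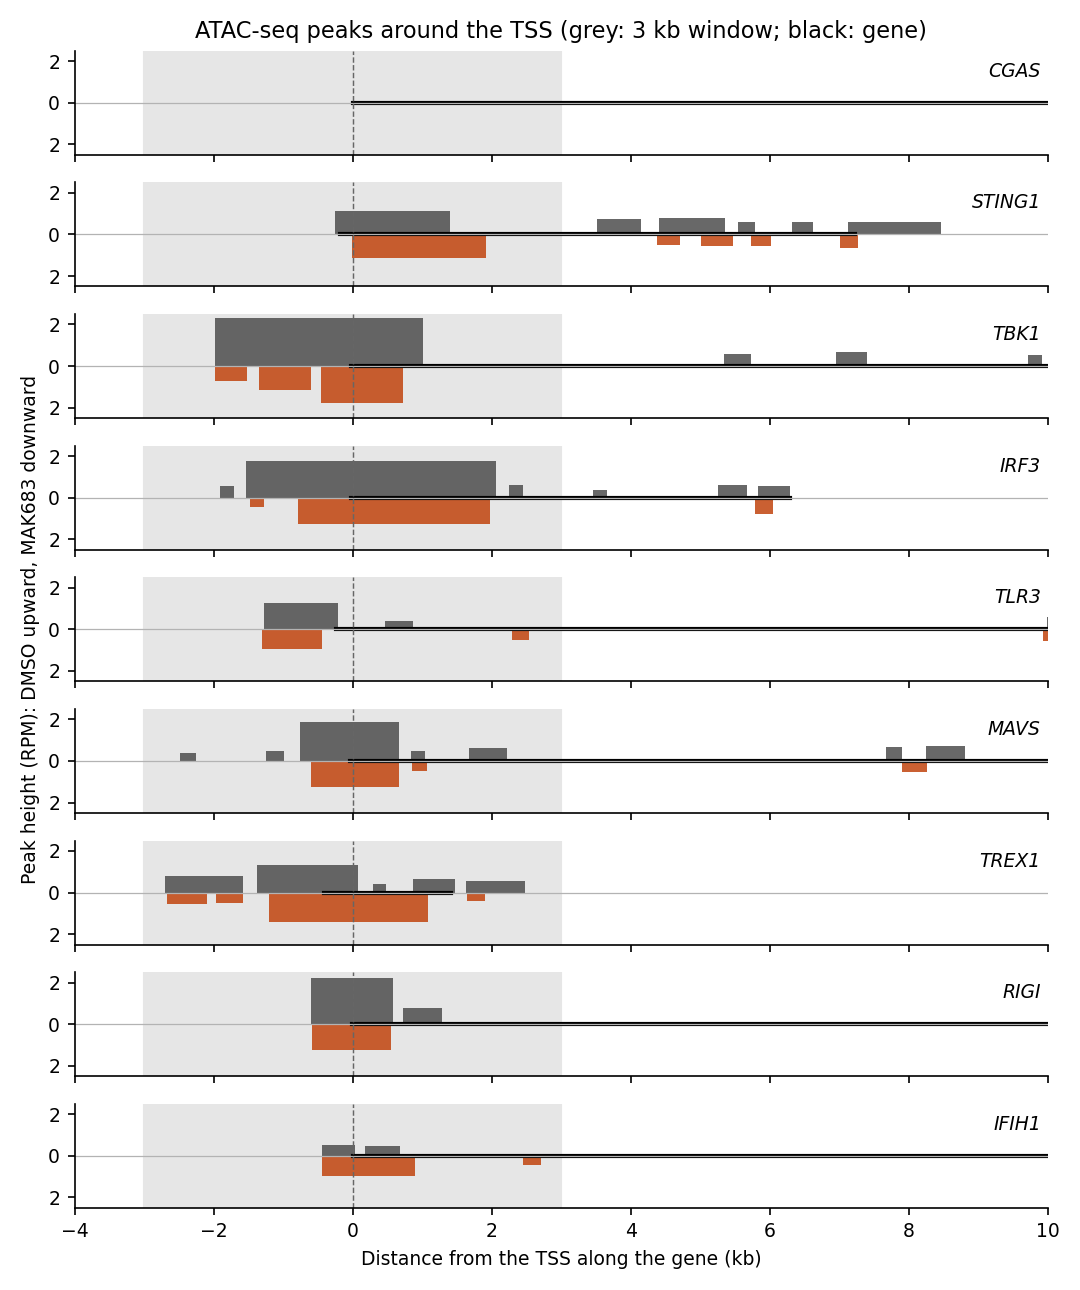
Peaks of the 9 genes around the TSS, by distance from it along the gene in kb (horizontal axis). Height in RPM is drawn upward for the DMSO library (grey) and downward for the MAK683 library (orange). The window of 3 kb is shaded and the gene is a black line. Peaks beyond the range of the axis, among them all body peaks of IFIH1, are not drawn. CGAS is empty, the single DMSO peak of TBK1 faces 3 MAK683 peaks, and the 2 DMSO promoter peaks of IFIH1 face 1 wider MAK683 peak.

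Counted over the 9 genes, peaks were fewer in the MAK683 library although that library had more peaks in all. At a −log10 q-value of at least 10 this order turned, with 7 DMSO and 9 MAK683 peaks. The promoter windows held 21 DMSO and 17 MAK683 peaks and the rest of the gene bodies 24 and 19. The covered length was 30.4 kb for DMSO and 24.9 kb for MAK683 peaks. The 6 members with fewer MAK683 than DMSO peaks were STING1, TBK1, IRF3, MAVS, TREX1 and RIGI, and 42.7% of protein-coding genes with any peak in window or body also had fewer. Peaks in the gene bodies were low, with 6 to 13 tags in the DMSO library and 7 to 14 in the MAK683 library. Of these, 12 of 24 DMSO and 12 of 19 MAK683 body peaks overlapped a peak of the other library, where 45.8% and 40.1% did over the bodies of all protein-coding genes. In the promoter windows 14 of 21 and 15 of 17 did, where 74.2% and 74.8% did over the windows of all protein-coding genes. Summits of body peaks lay in introns at 14 DMSO and 13 MAK683 peaks.

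**Figure D4:**
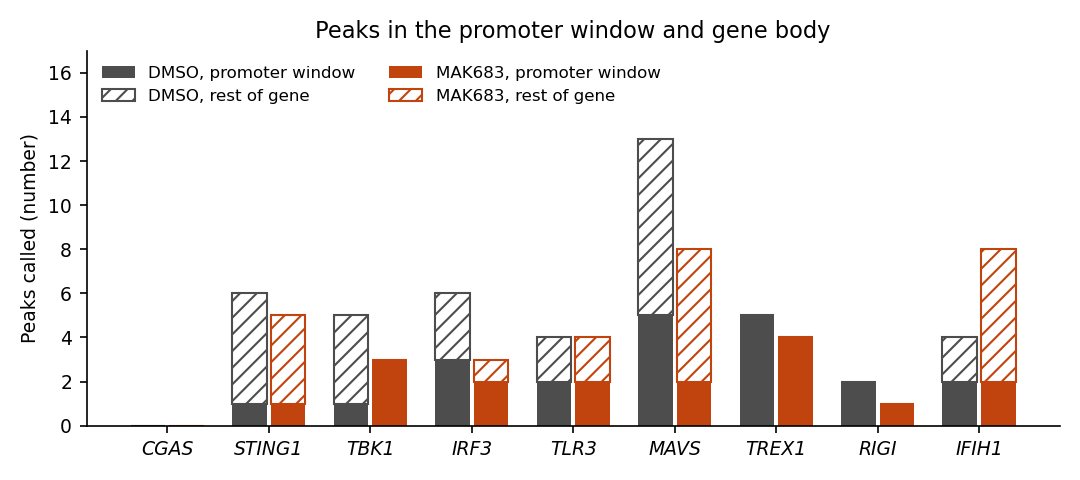
Number of peaks called (vertical axis) in the promoter window (solid) and the rest of the gene (hatched) of each gene, in the DMSO library (grey) and the MAK683 library (orange). IFIH1 goes from 4 to 8 peaks, MAVS from 13 to 8, and CGAS has 0 in both libraries.

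Ranked by height in the DMSO library the order was TBK1, RIGI, MAVS, IRF3, TREX1, TLR3, STING1 and IFIH1. In the MAK683 library it was TBK1, TREX1, then MAVS, IRF3 and RIGI with 23 tags each, then STING1, IFIH1 and TLR3. Neighbours in either order had overlapping counting intervals.

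The other genes of the pathway were read from a list of 52 with the same measures. A promoter peak was called at 41 in the DMSO library, at 46 in the MAK683 library and at 40 in both. The median log2 ratio over the 40 was −0.47, from −1.08 to 0.33, next to the −0.46 of all promoters. Height was greater in the MAK683 library at 3 of the 40, against 13.5% of promoters, and smaller at 37. The 3 highest ratios were those of IRF5, an interferon regulatory factor, at 0.33 with 13 and 18 tags, of the RNA-editing enzyme ADAR at 0.05 with 14 and 16 tags, and of AZI2, an adaptor of TBK1, at 0.01 with 64 and 71 tags. All were below the 0.86 of IFIH1. The 3 lowest were those of MYD88, the adaptor of most Toll-like receptors but not TLR3, at −1.08 with 52 and 27 tags, of STIM1, a calcium sensor that binds STING, at −1.08 with 46 and 24 tags, and of RNASEH2A, a subunit of RNase H2, at −0.88 with 25 and 15 tags. MYD88 and STIM1 were the 2 of the 40 genes past a 2-fold difference, both downward. Of all promoters, 5.89% were past it downward and 1.11% upward.

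By class, the 5 DNA sensors with a peak in both libraries had a median log2 ratio of −0.34 and the 5 RNA sensors and endosomal receptors −0.54. The median was −0.40 over 7 nucleases and editors, −0.45 over 9 adaptors and kinases, −0.66 over 6 regulators of the adaptors and −0.40 over 8 transcription factors and interferon receptors. Counting intervals lay below 0 at 6 of the 40, against 16.9% of promoters, and above 0 at none, against 0.819%. In each class the median was below 0, as was the −0.46 of all promoters.

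Peaks in a single library went mostly 1 way. Of the 52 genes, 6 had a promoter peak in the MAK683 library alone, against 7.87% of all genes, and 1 in the DMSO library alone, against 1.84%. The 6 were among 11 genes of the list without a DMSO promoter peak, and over all genes 28.8% of those without a DMSO peak had a MAK683 peak. The peak covered the TSS at the DNA sensor IFI16 with 11 tags and at OAS1, a sensor of double-stranded RNA, with 10 tags. At IFNB1, the interferon beta gene that IRF3 activates, the tallest peak held 17 tags, 0.931 RPM (0.542 to 1.49). Its summit lay 1691 bp downstream of the TSS, which this peak did not cover. The peaks of ZBP1, a sensor of Z-form nucleic acid, with 14 tags, and of the inflammasome sensor AIM2, with 10 tags, lay 2258 and 1945 bp upstream. NLRX1, a mitochondrial regulator of MAVS, had a DMSO peak of 10 tags and none in the MAK683 library. These were low peaks, and the lists give no value for tags that fell short of a peak. The promoters of 5 genes, OAS2, RNF135, TICAM1, TLR7 and TLR8, had no peak in either library.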

How the data were processed

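ATAC-seq was performed on 1 DMSO and 1 MAK683 library of G401 cells. The study's methods give trimming by Trim-galore and alignment to hg19 by Bowtie2. Peak calling was done by the authors separately for each library with MACS 2.1.1.20160309, per the file headers, without a control or local background, with a q-value cutoff of 0.05, 1 tag kept per position, and tags shifted by -100 bp and extended to 200 bp. The submitters' processing notes name versions 2.1.0 and 2.2.7.1. Alignments were read as single ends, so that tags are reads. Of 23901891 and 26692938 tags, 69.4% and 68.4% remained. The deposited pileup is a signal in whole tags at the summit. The deposited fold enrichment is a ratio to the background, and the deposited −log10 p-values and −log10 q-values depend on depth.

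Peaks of chromosomes 1 to 22, X and Y were joined to GENCODE 44 lifted to GRCh37, with 1 TSS per gene. The promoter height was that of the tallest peak overlapping the window. Intervals of heights are Clopper-Pearson, and those of ratios are exact binomial intervals given the sum of both tag counts; without molecular identifiers, reads are not independent molecules. The 57983 regions are merged overlapping peaks of both libraries, and regions within 10 kb of the TSS were left out of the values within 1 Mb. Of the genes named, all 9 members were taken, the 3 highest and 3 lowest of the pathway list, and those with a peak in 1 library, of which 1 is not reported here. The members, lists and motifs were chosen with earlier results of these data known. The promoter sequences of CGAS, STING1 and IRF3 were not used here. Alternatives were stricter q-values, other windows, TSSs, height scales and overlap rules. The interval code was tested on simulated data. Python 3.11.15, pandas 2.3.3 and scipy 1.17.1 were used.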

Additional observations from a re-analysis of the deposited data

How the results depend on the processing

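Over 165 recomputed values, 147 kept their direction and stayed within a band around the value reported, 16 moved and 2 reversed. The band was the counting interval of a ratio, the spread over genes for a median and 1.5 times for a count. Many values could hardly differ. Stricter q-values, other windows and other TSSs left the members' ratios unchanged wherever a ratio remained. Unscaled pileups and centring shifted all ratios by 1 constant. IFIH1 remained above 0 in the 7 settings that gave it a value, from 0.47 to 1.19, and had none where −log10 q of at least 5 or 10 was required, since its DMSO peak was then lost. RIGI stayed below 0 in 9 settings, from −1.26 to −0.49. With unscaled pileups 1 member, IFIH1, was exactly 2-fold higher, with 9 DMSO and 18 MAK683 tags, and the pathway median was −0.33. Centred on the region median, 1 member was at least 2-fold higher, the members' median was −0.08, the pathway median was −0.14 and 10 pathway genes were higher. At −log10 q of at least 10, 1 pathway gene was higher. No share over all promoters was computed for these settings, so the counts have no background beside them. With pileups summed over the window MAVS and RIGI passed 2-fold lower, at −1.12 and −1.26, with no share over all promoters computed. TBK1 then turned to 0.66, since its 3 MAK683 peaks add up against 1 DMSO peak, and TREX1 turned to −0.39, with 5 DMSO against 4 MAK683 peaks. The members' peaks fell to 26 DMSO and 13 MAK683, of which 10 and 11 were shared, at −log10 q of at least 5, and to 7 and 9, of which 7 and 8 were shared, at 10. With overlap of 50% of each peak required, 10 and 10 were shared. The fewer MAK683 peaks thus turned into more at −log10 q of at least 10; the cause was not tested. No paired analysis was possible because each group has 1 library. Precision is set by the 9 to 38 tags behind each promoter height, and intervals cover counting error only.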

Other observations

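Because IFNB1 had a promoter peak in the MAK683 library alone, the other interferon ligand genes were read in the same way, a set chosen after that value was seen. Of 22 interferon genes, 1 had a promoter peak in the DMSO library (IFNW1, 9 tags) and 12 in the MAK683 library, and 10 had none in either. Of the 21 without a DMSO peak, 11 (52.4%) had a MAK683 peak, where 28.8% of all such protein-coding genes did. IFNB1, which led to the choice of this set, is among the 11, so that choice raised the share. In addition, 16 of the 22 genes lie within 410 kb and are not separate observations. The shares therefore cannot decide whether interferon genes gained peaks more often than other genes. The MAK683 peaks of the 11 genes were low, with 7 to 17 tags, were 13 distinct peaks, and covered the TSS at 4 of the 11 genes. The type I genes lie together on chromosome 9. Across the 410 kb that holds 16 of them, 14 DMSO and 55 MAK683 peaks were called, where the whole chromosome had 5264 and 7417. The interferon alpha genes are near-identical copies, so reads may be placed on the wrong copy. The difference was not tested, as there is 1 library per group.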
